A study of Mus musculus with 10 samples.

Results

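The 10 dendritic cell identity genes described here were taken by name from a table of 55359 genes, 4 that mark plasmacytoid dendritic cells (Siglech, Ccr9, Tcf4 and Cd7) and 6 that mark conventional dendritic cells (Id2, Zbtb46, Batf3, Itgax, Cd209a and Xcr1). All 10 passed the filter for testing, a mean over the 10 libraries of at least 0.1 FPKM (fragments per kilobase of transcript, scaled to the mapped fragments of the library), as did 18742 genes in all. The measurement was bulk RNA-seq of lineage-negative (Lin-) bone marrow cells, the immature fraction left after cells with markers of mature blood lineages are removed, from 5 Dhx9f/f libraries (WT) and 5 Dhx9f/f;MX1 libraries (cKO). Both groups carry loxP-flanked Dhx9, the gene of an RNA helicase, and the cKO group adds the MX1-Cre transgene, whose interferon-inducible promoter is switched on by poly(I:C) in blood cells and also in other tissues. The study's general methods describe poly(I:C) injections for MX1-Cre mice. Whether the sequenced Dhx9f/f mice received it, and how old the mice were, is not given in the sources used here, so deletion, Cre and poly(I:C) cannot be told apart. The labels number the replicates without tying them to animals, so the p-values measure the spread between these libraries.

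Dendritic cells sense pathogens and present antigen, and arise in bone marrow from FLT3+ progenitors. Plasmacytoid dendritic cells are the main makers of type I interferon and depend on the E protein TCF4, whereas conventional dendritic cells express ID2, an inhibitor of E proteins, and fall into a type 1 that needs BATF3 and IRF8 and carries XCR1, and a type 2 that carries SIRPα and CD209a. Several of the 10 genes are also active in other cells. CD7 is also found on lymphoid and NK cells, CCR9 on lymphoid progenitors and T cells, ID2 in innate lymphoid and myeloid cells, ZBTB46 in erythroid progenitors and CD11c, the product of Itgax, on monocytes and NK cells. Plasmacytoid cells carry B220 and many type 2 cells carry CD11b, both common targets of lineage depletion, so a Lin- sample may hold few of these cells in mature form. The number of mature dendritic cells in these samples was not measured.

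In the libraries labelled cKO, Siglech, Cd7 and Cd209a were almost lost and Itgax was an order of magnitude lower. No change was called in Id2, Xcr1, Batf3 or Zbtb46 in the fit of all 10 libraries. For Zbtb46 that fit gave a log2 fold change of -0.32 (limma adjusted p = 0.137). It was -0.46 (adjusted p = 0.00583) without cKO 1, which lay above all WT libraries, and 0.08 (adjusted p = 0.729) under quantile normalization. Of the 10 genes, 5 were called lower (limma, adjusted p under 0.05 and at least a 2-fold difference) and 0 higher, against 16.8% of all genes tested called lower and 4.6% called higher. The 5 were 3 of the 4 plasmacytoid genes (Siglech, Cd7 and Ccr9) and 2 of the 6 conventional genes (Itgax and Cd209a). On adjusted p alone, without the fold limit, 6 were lower and 0 higher, against 28.3% and 16.7% of all genes. In those 6 every cKO library was below every WT library, which held for 21.6% of all genes, and in 0 of the 10 was every cKO library above, against 10.6%. All 10 had a negative log2 fold change, as had 56.3% of all genes. The median log2 fold change was -1.13 over the 10 genes, -2.49 over the plasmacytoid and -1.01 over the conventional ones, and -0.11 over all genes tested. Dendritic cell genes were present in WT, with Siglech, Cd7, Tcf4, Id2, Zbtb46, Itgax and Cd209a above 1 FPKM in every WT library, but the defining type 1 marker Xcr1, together with Batf3 and Ccr9, did not exceed 0.36 FPKM in any library. In bulk samples, fewer cells of a type and less RNA per cell cannot be told apart.

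The libraries held 13837000 to 18711000 fragments by the steps between low FPKM values, with similar ranges in both groups, and 3 fragments of a 1000 bp transcript were worth 0.160 to 0.217 FPKM. Dhx9 was higher in the libraries labelled cKO, at 65.43 to 72.42 FPKM in WT and 130.82 to 156.49 FPKM in cKO. These values cover the whole gene and do not show single exons, so they do not test the deletion. Groups are named by their labels throughout. Xist was at most 0.09 FPKM in all cKO libraries, WT 1 and WT 2, and 99.19 to 127.76 FPKM in WT 3, WT 4 and WT 5. Among the libraries with low Xist alone, Siglech (log2 fold change -3.88), Cd7 (-4.98), Itgax (-3.48) and Cd209a (-5.77) were again called lower and Ccr9 (-0.89) was not. Summed FPKM of other blood lineages differed as well. Early lymphoid markers summed to 144.8 to 181.6 in WT and 3.66 to 63.13 in cKO, 15 monocyte markers to 1006 to 1759 and 9.55 to 318.8, 10 neutrophil markers to 2737 to 3713 and 147.8 to 2598 (the highest in cKO 1), and 12 erythroid markers to 1244 to 2264 and 3871 to 6615. The part of these differences in the results on dendritic cell genes was not tested.

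The 250 bases before the transcription start are shown for 3 genes called lower, Siglech of the plasmacytoid group and Itgax and Cd209a of the conventional group. Among the members called lower, their RefSeq starts lay nearest to the annotated gene starts (6, 54 and 0 bp). Xcr1, also at 0 bp, was not called lower and is not shown, and its window held no match to the motifs sought. Sequences are from the RefSeq promoter table (build GRCm38.p6), placed by a single exact match in GRCm39 at chr7:55417682-55417931 (plus strand), chr7:127728472-127728721 (plus strand) and chr8:3798985-3799234 (minus strand). Capitals mark an E-box (CAGGTG or CAGCTG, bound by E proteins such as TCF4) in Siglech, an AP-1 site (TGANTCA, bound by dimers that include BATF3) in Itgax and an ETS-IRF composite (GGAANNGAA, bound by PU.1 with IRF8 or IRF4) in Cd209a, on either strand.
Siglech: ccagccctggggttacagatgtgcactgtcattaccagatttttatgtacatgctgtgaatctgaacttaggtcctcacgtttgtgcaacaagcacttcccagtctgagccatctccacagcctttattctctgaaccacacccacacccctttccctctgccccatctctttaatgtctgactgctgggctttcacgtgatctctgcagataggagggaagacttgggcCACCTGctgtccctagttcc
Itgax: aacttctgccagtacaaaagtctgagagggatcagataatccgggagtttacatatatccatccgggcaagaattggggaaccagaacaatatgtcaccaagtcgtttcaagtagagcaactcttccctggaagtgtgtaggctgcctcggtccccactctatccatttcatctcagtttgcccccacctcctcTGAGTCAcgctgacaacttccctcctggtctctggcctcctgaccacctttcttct
Cd209a: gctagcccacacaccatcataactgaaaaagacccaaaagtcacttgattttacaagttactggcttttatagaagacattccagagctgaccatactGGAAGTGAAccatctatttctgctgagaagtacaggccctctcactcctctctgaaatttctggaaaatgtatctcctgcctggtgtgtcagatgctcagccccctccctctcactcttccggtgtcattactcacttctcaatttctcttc

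Promoters of 8 members matched the table by symbol, without Tcf4 and Cd7. In windows from 250 bases before to 50 after the start, an E-box was found in 5 of 8 (Siglech, Ccr9, Id2, Itgax and Zbtb46), against 33.1% of 32544 promoters of the same length. The Siglech E-box began at position -20 from the start. The Zbtb46 window lay 38698 bp inside the annotated gene and the Ccr9 window 89095 bp inside. AP-1 letters were in Itgax and Zbtb46, 2 of 8, against 7.79% of promoters, and ETS-IRF letters in Cd209a, 1 of 8, against 8.22%, with one site at position -152 from the start and another overlapping the start itself. The PU.1 letters GAGGAAGT were in 0 of 8, against 3.11%. These motifs do not overlap one another in the printed windows, and a match describes letters and not binding.

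Siglech (ENSMUSG00000051504; GRCm39 chr7:55417926-55429195, plus strand) encodes Siglec-H, the surface receptor by which mouse plasmacytoid cells are commonly recognised. Across WT libraries 1 to 5 its FPKM were 3.18, 1.91, 3.38, 2.39 and 2.32. Across cKO libraries 1 to 5 they were listed as 0, 0, 0.37, 0 and 0.24. The groups did not overlap, and 3 cKO libraries had no signal at 2 decimals. The mean fell from 2.64 ± 0.62 (SD, n = 5) to 0.122 ± 0.173 FPKM (SD, n = 5), a log2 fold change of -3.94 (SE 0.48, limma adjusted p = 1.46e-04) on the log2(FPKM + 0.1) scale used for all fold changes. Leaving out any 1 library gave -4.30 to -3.74.

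Cd7 (ENSMUSG00000025163; chr11:120927570-120930289, minus strand) encodes a membrane protein of lymphoid cells that also serves as a marker of plasmacytoid cells. It had the highest WT mean of the 10 genes, above 74.1% of all genes tested. Its WT values were 14.94, 9.42, 9.42, 13.44 and 14.02 FPKM. Its cKO values were 0.19, 0.15, 0.49, 0.06 and 1.05 FPKM. The highest cKO library, cKO 5, held about 20 fragments by the annotated length of the gene and the lowest WT library about 172. From WT to cKO the mean fell 31.6-fold, 12.25 ± 2.64 against 0.388 ± 0.404 FPKM (SD, n = 5 each), with a log2 fold change of -5.0 (SE 0.46, limma adjusted p = 5.28e-05).

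Ccr9 (ENSMUSG00000029530; chr9:123507181-123613395, plus strand), the receptor for the gut chemokine CCL25, was far less abundant, above only 13.3% of genes tested in WT. WT values were 0.22, 0.18, 0.26, 0.31 and 0.20 FPKM. The cKO values were 0.09, 0.02, 0.07, 0.10 and 0.04 FPKM. The groups did not overlap, but both lay near the bottom of the scale, and the log2 fold change of -1.04 (SE 0.26, limma adjusted p = 0.00676) stood just past the 2-fold limit. The means, 0.234 ± 0.052 and 0.064 ± 0.034 FPKM (SD, n = 5 each), differed 3.66-fold, and at this level the pseudocount sets much of the fold change, which was -1.85 with a pseudocount of 0.01 and -0.21 with 1. The call was lost in 8 of 20 alternatives, among them leaving out WT 4 (-0.96), cKO 2 (-0.93) or cKO 5 (-0.99), and in the fit with Xist as a covariate (-0.89, adjusted p = 0.0723). Exons of Ccr9 overlap those of Slc6a20a on the opposite strand over 434 bp, and whether the counting used strand is not given in the sources used here.

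Tcf4 (ENSMUSG00000053477; chromosome 18, plus strand), the master regulator of plasmacytoid fate, was lower in cKO by less than 2-fold. WT values were 3.55, 2.91, 2.88, 3.43 and 2.89 FPKM. The cKO values were 2.52, 1.59, 1.8, 1.28 and 1.47 FPKM. Every cKO library was below every WT library, and the difference passed the adjusted p but not the fold limit (log2 fold change -0.85, SE 0.18, 95% interval -1.24 to -0.45, limma adjusted p = 0.00288). The adjusted p was 0.0854 under quantile normalization (-0.37) and 0.0571 in the libraries with low Xist (-0.89). The mean level was 3.13 ± 0.33 in WT and 1.73 ± 0.48 FPKM in cKO (SD, n = 5), so cKO kept 55.3% of the WT level, against 4.63% for Siglech. Tcf4 is also expressed in progenitors and B lymphoid cells.

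**Figure D1:**
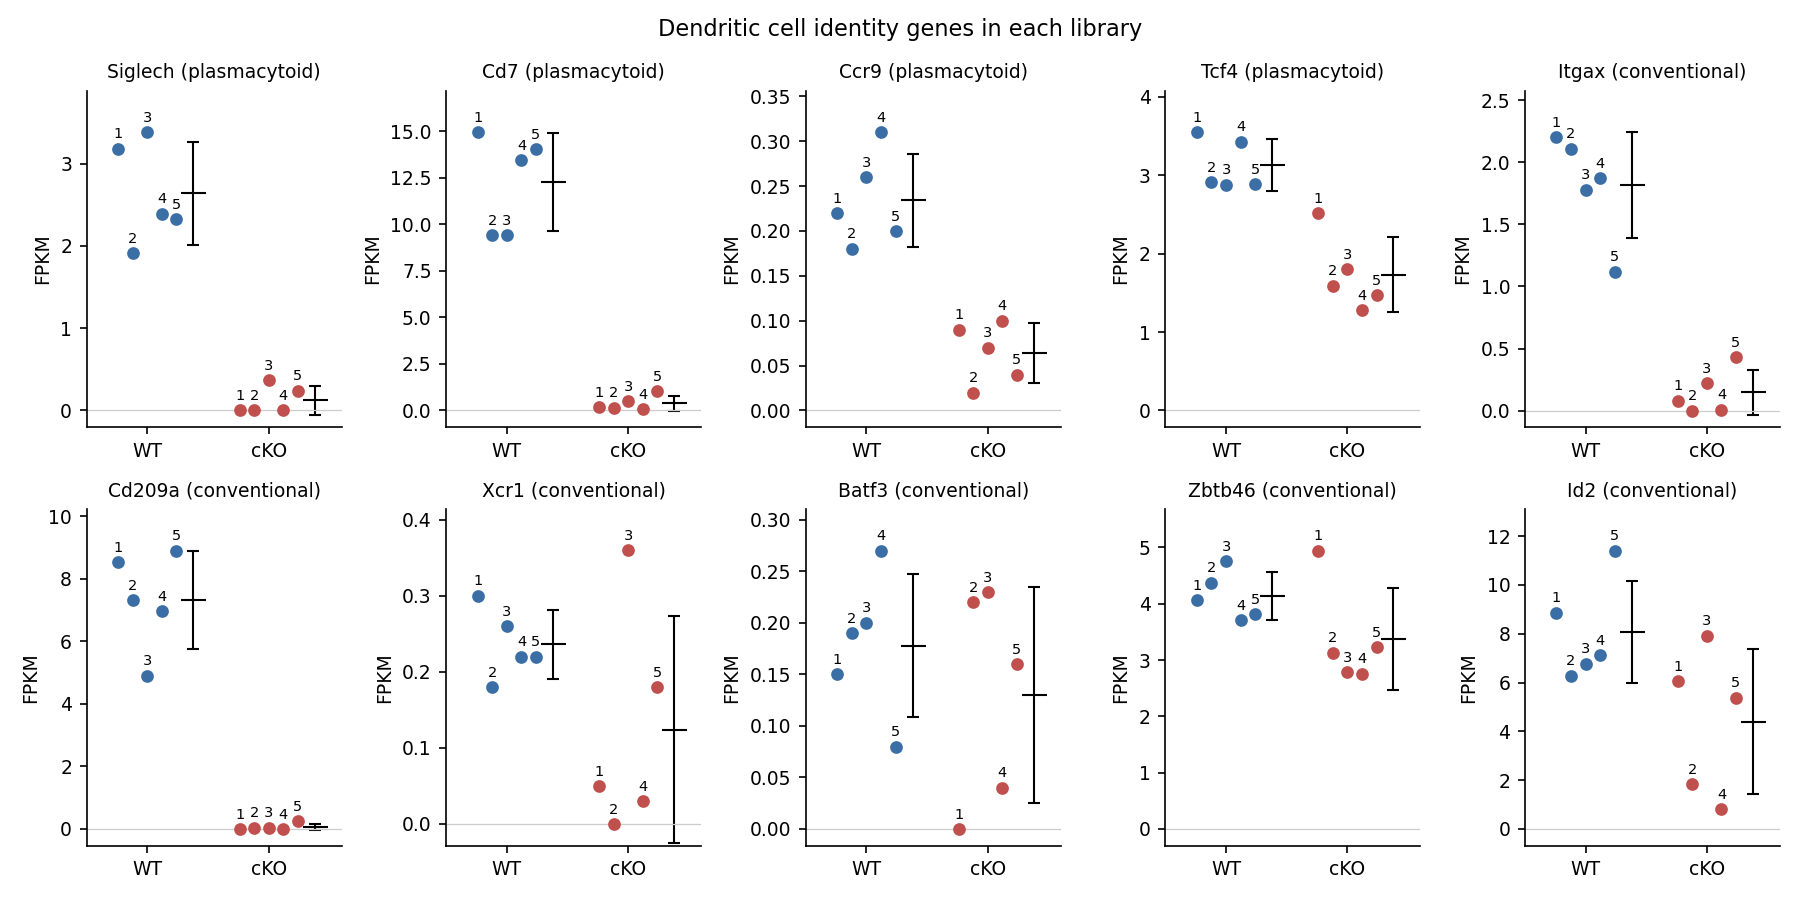
FPKM (y axis, linear, from a separate scale per gene) of each dendritic cell identity gene in 5 WT (blue) and 5 cKO (red) libraries, numbered by replicate, with the mean and SD as a black bar. Siglech, Cd7, Ccr9, Tcf4, Itgax and Cd209a had every cKO library below every WT library, whereas Xcr1, Batf3, Zbtb46 and Id2 overlapped.

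Among the conventional genes, Cd209a (ENSMUSG00000031494; chr8:3793397-3798984, minus strand), which encodes the C-type lectin DC-SIGN homologue of type 2 and monocyte-derived dendritic cells, had the most negative log2 fold change of the 10 at the pseudocount of 0.1. With a pseudocount of 1 it was -2.95, and that of Cd7 -3.27. WT values were 8.53, 7.31, 4.90, 6.96 and 8.90 FPKM. In cKO they were 0, 0.04, 0.04, 0 and 0.24 FPKM. By the annotated length this was about 120 to 225 fragments in WT, and 0 to 1 fragment in cKO libraries 1 to 4 with about 6 in cKO 5. The WT mean was 7.32 ± 1.58 FPKM and the cKO mean 0.064 ± 0.10 FPKM (SD, n = 5 each), giving a log2 fold change of -5.64 (SE 0.34, limma adjusted p = 1.37e-05) and a leave-one-out range of -5.94 to -5.50.

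Itgax (ENSMUSG00000030789; chr7:127728668-127749829, plus strand) encodes CD11c, the integrin that defines dendritic cells in flow cytometry. WT values were 2.20, 2.11, 1.78, 1.87 and 1.12 FPKM. In cKO they were 0.08, 0, 0.22, 0.01 and 0.43 FPKM. The groups did not overlap, with WT 5 the lowest WT library and cKO 5 the highest cKO library. The mean fell 12.3-fold, 1.82 ± 0.42 in WT against 0.148 ± 0.181 FPKM in cKO (SD, n = 5 each), with a log2 fold change of -3.21 (SE 0.45, limma adjusted p = 3.05e-04).

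Xcr1 (ENSMUSG00000060509; chr9:123681380-123691094, minus strand), the chemokine receptor of mature type 1 cells, was low in all libraries. WT values were 0.30, 0.18, 0.26, 0.22 and 0.22 FPKM. The cKO values were 0.05, 0, 0.36, 0.03 and 0.18 FPKM. The groups overlapped because cKO 3 was above every WT library, and no call was made (log2 fold change -0.81, SE 0.41, 95% interval -1.71 to 0.10, limma adjusted p = 0.133). Without cKO 3 the gene was called lower (-1.13, adjusted p = 0.0230).

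Batf3 (ENSMUSG00000026630; chr1:190830044-190841142, plus strand), the AP-1 factor that type 1 cells need, was the lowest of the 10 genes in WT. WT values were 0.15, 0.19, 0.20, 0.27 and 0.08 FPKM. In cKO they were 0, 0.22, 0.23, 0.04 and 0.16 FPKM. By its annotated length no library held more than about 8 fragments, and a difference was not detectable at this depth (log2 fold change -0.38, SE 0.39, 95% interval -1.25 to 0.48, limma adjusted p = 0.459).

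Zbtb46 (ENSMUSG00000027583; chr2:181012111-181104879, minus strand) encodes a zinc finger factor that separates conventional from plasmacytoid cells and is also active in erythroid progenitors. WT values were 4.06, 4.37, 4.75, 3.71 and 3.81 FPKM. Libraries cKO 1 to 5 gave 4.94, 3.13, 2.78, 2.76 and 3.23 FPKM. The 4 cKO libraries other than cKO 1 lay below all WT libraries and cKO 1 above all of them. The log2 fold change of -0.32 (SE 0.16, limma adjusted p = 0.137) had a 95% interval of -0.68 to 0.04, so a 2-fold fall was outside the interval, and under quantile normalization its sign turned (0.08, adjusted p = 0.729). Without cKO 1 it was -0.46 (adjusted p = 0.00583), under the 2-fold limit. The summed FPKM of 12 erythroid markers was higher in every cKO library than in any WT library. Of the 12 markers, 9 had all cKO libraries above WT, against 10.6% of all genes. Their part in the level of Zbtb46 was not tested.

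Id2 (ENSMUSG00000020644; chr12:25143798-25147282, minus strand), the inhibitor of E proteins in conventional and innate lymphoid cells, had the largest SD in FPKM (2.98) of the 10 genes among cKO libraries. It also had the highest cKO mean (4.40 FPKM). Its SD was 67.6% of that mean, between 26.8% for Zbtb46 and 157% for Cd209a. WT values were 8.86, 6.28, 6.77, 7.12 and 11.4 FPKM. Libraries cKO 1 to 5 gave 6.05, 1.84, 7.92, 0.82 and 5.38 FPKM. The groups overlapped through cKO 3, and the log2 fold change of -1.22 (SE 0.53, limma adjusted p = 0.0841) became a call without that library (-1.52, adjusted p = 0.0364). The conventional genes called lower then numbered 4 of 6 instead of 2. The libraries with the least Id2, cKO 2 and cKO 4, also had the lowest sums of neutrophil markers (181.2 and 147.8) and monocyte markers (22.93 and 9.55), and the part of these in the Id2 value was not tested.

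**Figure D2:**
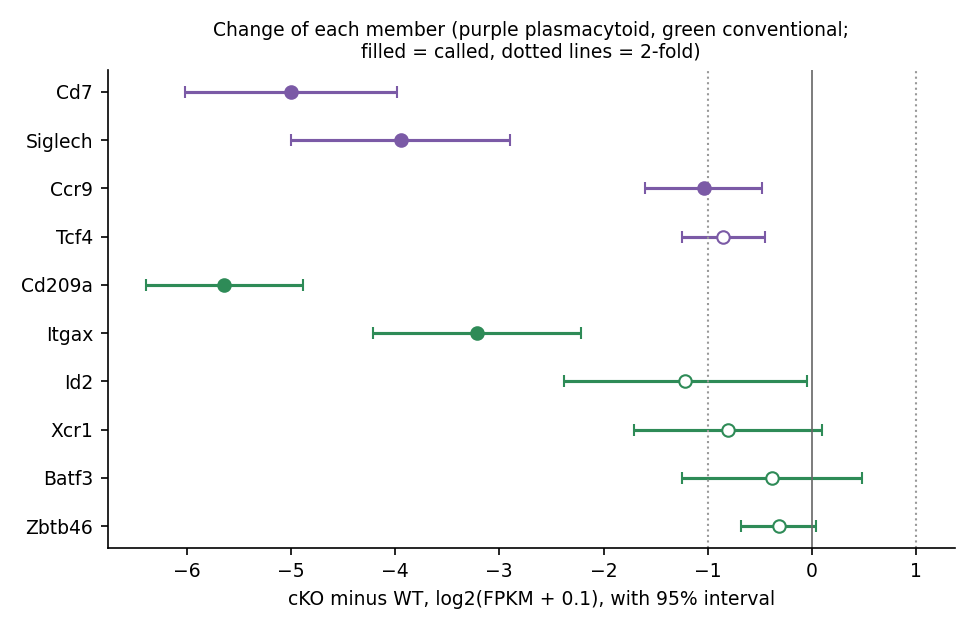
Log2 fold change (x axis, cKO minus WT on the log2(FPKM + 0.1) scale) of each of the 10 genes, with the 95% interval of the limma fit; purple marks plasmacytoid and green conventional genes, and filled points are called lower. Cd209a (-5.64), Cd7 (-5.0), Siglech (-3.94) and Itgax (-3.21) lie far from the remaining 6, which lie between -1.22 and -0.32.

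The order of the WT means in FPKM, a scale that allows for gene length, was Cd7, Id2, Cd209a, Zbtb46, Tcf4, Siglech, Itgax, Xcr1, Ccr9 and Batf3. Neighbours in this order overlapped between libraries except Cd209a over Zbtb46, Zbtb46 over Tcf4 and Itgax over Xcr1. In cKO, Id2 and Zbtb46 were the first and second by mean level and Tcf4 the third. The coefficient of variation was larger among cKO than among WT libraries for each of the 10 genes, from 26.8% (Zbtb46) to 157% (Cd209a) in cKO and from 10.3% (Zbtb46) to 39.2% (Batf3) in WT. The share of all genes with a larger cKO value is not given here, so this is not a trait of the 10 genes. Cd209a held 0 to about 6 fragments per cKO library, where counting error adds to the spread.

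The means of both groups of markers were lower in every cKO library than in any WT library. In the conventional group 4 of the 6 genes were not called, and Cd209a and Itgax had the most negative fold changes. The mean log2(FPKM + 0.1) of the 4 plasmacytoid genes was 1.0 to 1.46 in WT and -1.96 to -0.87 in cKO. That of the 6 conventional genes was 0.80 to 1.03 in WT and -1.82 to -0.34 in cKO. The plasmacytoid mean minus the conventional mean was 0.13 to 0.49 in the 5 WT libraries and -0.54 to -0.14 in the 5 cKO libraries, a change of -0.78 against an SD of 0.144 between WT libraries. With a pseudocount of 1 the change was -0.51. This is a description of 10 chosen genes with no test. The pseudocount of 0.1 limits how far genes near it can fall. Xcr1 and Batf3 of the conventional group (WT means 0.236 and 0.178 FPKM) and Ccr9 of the plasmacytoid group (0.234 FPKM) were near it. The size of the change therefore depends on which low genes each group holds, and their part in it was not tested. The balance of Tcf4 and Id2 in log2 did not separate the groups, at -1.94 to -1.03 in WT and -2.08 to 0.58 in cKO.

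**Figure D3:**
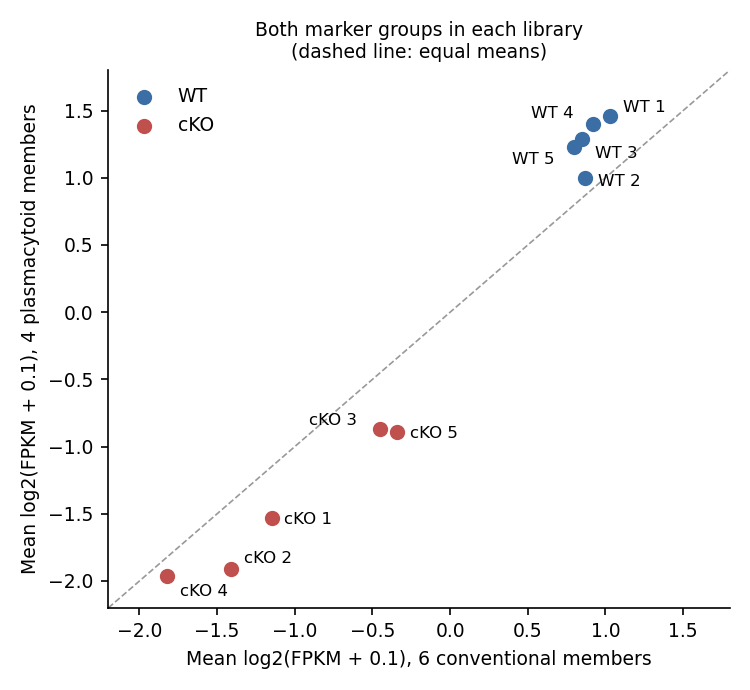
Mean log2(FPKM + 0.1) of the 4 plasmacytoid genes (y axis) against that of the 6 conventional genes (x axis) in each of 10 libraries. All 5 WT libraries lie above the line of equal means and all 5 cKO libraries below it, with cKO 3 and cKO 5 nearest to WT.

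The order of the cKO libraries was examined after the values were seen. In 4 of the 10 genes (Siglech, Cd7, Itgax and Xcr1) cKO 3 and cKO 5 were the highest of the cKO libraries, against 20.1% of all genes tested. Among the genes called lower the share was 39.9%. Siglech, Cd7 and Itgax were called lower and Xcr1 was not, so the 10 genes and the genes called lower are unlike sets. The same libraries were highest in 13 of 15 monocyte markers, 8 of 10 early lymphoid markers and 7 of 7 B lymphoid markers tested, and in 0 of 12 erythroid and 0 of 10 neutrophil markers. In the other lists described below they were highest in 9 of 18 further plasmacytoid, 7 of 13 type 1 and 8 of 13 type 2 and shared genes. They were also highest in 8 of 18 regulators, 1 of 6 E protein and ID protein genes, 6 of 12 NK and 7 of 9 T cell markers.

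Other dendritic cell genes were read from lists of known markers. Of 18 further plasmacytoid genes tested, 12 were called lower and 0 higher, beside 16.8% and 4.6% of all genes. Their median log2 fold change was -2.44. Cd300c, a surface receptor of the CD300 family, fell from 3.39 ± 1.53 to 0.094 ± 0.179 FPKM (limma adjusted p = 9.37e-05), and Pld4, an exonuclease of the endolysosome that degrades nucleic acids, from 29.3 ± 7.21 to 2.48 ± 2.76 FPKM (adjusted p = 7.54e-04). Bst2, an interferon-induced antiviral tether and the antigen of plasmacytoid cells known as PDCA-1, was at 53.3 ± 3.03 FPKM in WT and 43.3 ± 15.9 FPKM in cKO, with no call (log2 fold change -0.37, limma adjusted p = 0.163). Smim5 was at 14.3 ± 0.965 and 19.8 ± 4.75 FPKM, a difference under 2-fold (0.44, adjusted p = 0.0194). The gene whose profile over the 10 libraries was most like that of Siglech, among the 12353 genes that averaged 1 FPKM or more, was Tlr9, the endosomal sensor of DNA (root mean squared difference 0.267 in log2), followed by Ppfia4 (0.305) and Rasa4 (0.352). The nearest to Zbtb46 were Fads1 (0.0836), Mppe1 (0.0951) and Fancd2 (0.101).

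Of 13 further type 1 genes tested, 6 were called lower and 1 higher, beside 16.8% and 4.6% of all genes. Their median log2 fold change was -0.96. Clec9a, the receptor for dead cells on type 1 cells and their precursors, fell from 7.96 ± 1.74 to 0.382 ± 0.351 FPKM (log2 fold change -4.44, limma adjusted p = 1.33e-04), beside -0.81 for Xcr1 and -0.38 for Batf3. The last 2 had WT means of 0.236 and 0.178 FPKM. So near the pseudocount of 0.1, neither could fall as far as Clec9a on this scale, and the fold changes alone do not compare these genes. In plain FPKM the cKO mean was 52.5% of the WT mean for Xcr1, with cKO 3 above every WT library, and 73.0% for Batf3. Both rest on few fragments, and the part of the pseudocount in the contrast was not tested. Wdfy4, needed for cross-presentation, fell from 14.8 ± 1.26 to 5.64 ± 1.53 FPKM (adjusted p = 1.25e-04), and Gcsam from 5.33 ± 1.95 to 0.720 ± 0.464 FPKM (adjusted p = 6.84e-04). Cd24a, which is also abundant in erythroid progenitors, rose from 302.0 ± 80.4 to 800.6 ± 199.8 FPKM (log2 fold change 1.41, limma adjusted p = 2.53e-04) and made up most of the list's summed FPKM in every library.

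Of 13 further type 2 and shared conventional genes tested, 9 were called lower and 1 higher, beside 16.8% and 4.6% of all genes. Their median log2 fold change was -1.86. The call higher was Relb, which rose from 0.62 ± 0.138 to 1.81 ± 0.741 FPKM (log2 fold change 1.34, limma adjusted p = 0.00248). Every cKO library was above every WT library, but Relb was not called with a pseudocount of 1 or in the libraries with low Xist. Sirpa, the inhibitory receptor for CD47, fell from 21.8 ± 4.12 to 3.24 ± 2.39 FPKM (limma adjusted p = 7.50e-04), and Clec12a, an inhibitory lectin also found on monocytes, from 37.1 ± 7.15 to 5.62 ± 4.05 FPKM (adjusted p = 9.64e-04). Mgl2 (CD301b), a galactose-binding lectin of type 2 cells, fell from 4.82 ± 1.20 to 0.196 ± 0.268 FPKM (log2 fold change -4.41, adjusted p = 9.93e-05). Klf4, a factor of monocytes and type 2 cells, fell from 19.1 ± 3.91 to 1.42 ± 1.94 FPKM (-4.84, adjusted p = 9.12e-04). Clec4a4 was listed at 0 in all cKO libraries but averaged under 0.1 FPKM and was not tested.

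Regulators of dendritic cell development were called lower in 12 of 18 and higher in 0, beside 16.8% and 4.6% of all genes. Their median log2 fold change was -1.62. Irf8, the factor that commits progenitors to monocytes and type 1 cells, measured 53.65, 43.3, 38.13, 47.23 and 48.74 FPKM across the WT libraries, 1 to 5. In cKO libraries 1 to 5 it was at 0.38, 0.42, 5.41, 0.09 and 10.16 FPKM, lowest in cKO 4 and highest in cKO 5. The log2 fold change was -5.24 (SE 0.96, limma adjusted p = 0.00127). Csf1r, the receptor for macrophage colony-stimulating factor, fell from 26.8 ± 4.53 to 2.03 ± 2.50 FPKM (-4.63, adjusted p = 7.99e-04), and Flt3, the receptor that drives expansion of dendritic cell progenitors, from 20.8 ± 4.39 to 1.96 ± 2.27 FPKM (-3.97, adjusted p = 4.56e-04). Cbfb, the partner of RUNX factors, fell from 53.7 ± 7.20 to 19.3 ± 5.73 FPKM (-1.51, adjusted p = 1.63e-04). Ikzf1 (Ikaros), of all 18 the most abundant, differed by less than 2-fold (91.95 ± 3.92 and 80.0 ± 7.87 FPKM, log2 fold change -0.21, adjusted p = 0.0378).

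Of 6 E protein and ID protein genes tested, which include Tcf4 and Id2, 0 were called in either direction at the 2-fold limit. Among all genes 16.8% were called lower and 4.6% higher, so a count of 0 in so few genes is not far from that share. On adjusted p alone, Tcf4 was lower and the other E protein genes were higher. Tcf3 (E2A) was at 47.1 ± 6.70 FPKM in WT and 67.1 ± 4.06 FPKM in cKO (log2 fold change 0.52, SE 0.09, limma adjusted p = 0.00125), and Tcf12 (HEB) at 8.52 ± 0.424 and 11.9 ± 0.684 FPKM (0.47, SE 0.07, adjusted p = 4.03e-04), with no overlap of the groups in either gene. Id4 was listed at 0 in all cKO libraries and was not tested.

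**Figure D4:**
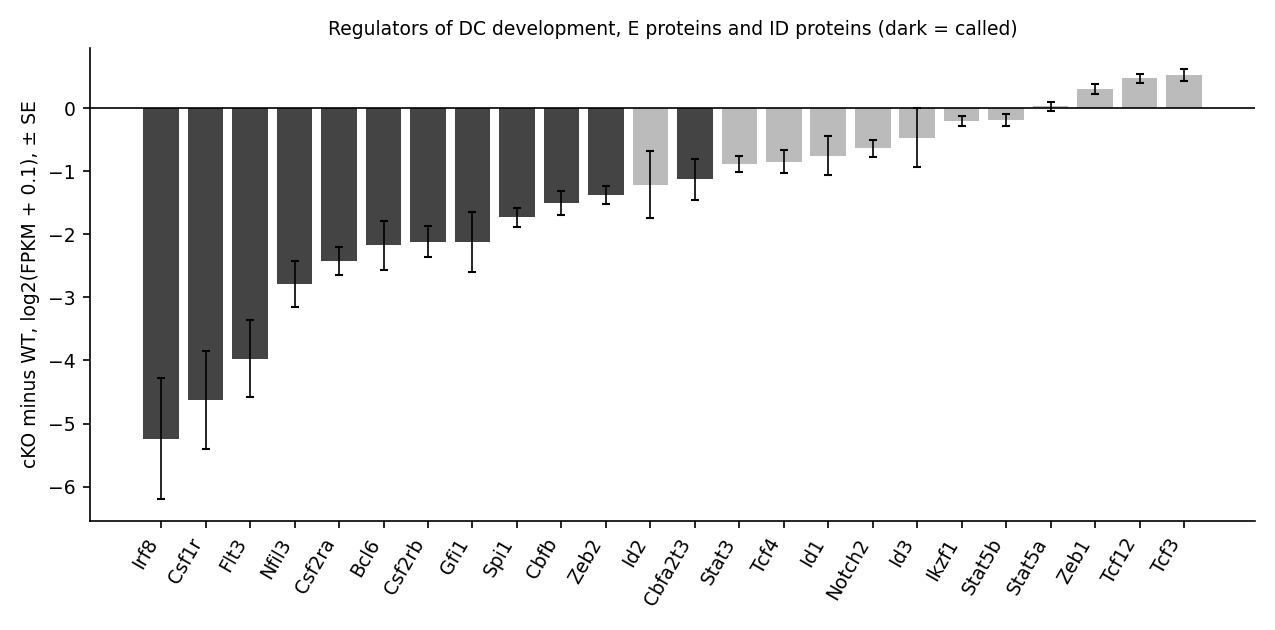
Log2 fold change (y axis, cKO minus WT on the log2(FPKM + 0.1) scale, bars from 0 with SE) of regulators of dendritic cell development, E proteins and ID proteins, dark where called. Irf8 (-5.24), Csf1r (-4.63) and Flt3 (-3.97) are at the low end, and Tcf3 (0.52) and Tcf12 (0.47) at the high end.

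Markers of cells that share these genes are given beside the 16.8% of all genes called lower and the 4.6% called higher. NK and innate lymphoid markers, which bear on Cd7, Id2 and Itgax, were called lower in 8 of 12 and summed to 9.33 to 13.42 FPKM in WT and 2.05 to 5.66 FPKM in cKO; Il2rb fell by 1.72 and Gzma by 1.62 on the log2 scale, and Gzmb had no call (-0.37). That count was 4 with Xist as a covariate, 2 in the libraries with low Xist, 2 with a pseudocount of 1 and 2 with the filter at 1 FPKM. Early lymphoid markers, which bear on Cd7, Ccr9 and Tcf4, were called lower in 9 of 10, with Dntt at -6.28, Cd27 at -4.26 and Ighm at -3.12. B lymphoid markers were called lower in 3 of 7 tested (Cd79b -2.72, and Cd79a -1.03 with no call) and T cell markers in 2 of 9 (Lck -1.88, and Lat -0.20 with no call), the latter a share near that of all genes. Cd3e (0.53) and Cd3g (0.29) had positive log2 fold changes with no call. The B lymphoid count was 5 without cKO 3, and 1 in the libraries with low Xist, with a pseudocount of 1 and with the filter at 1 FPKM, and the T cell count was 1 in both of the last. Monocyte and macrophage markers, which bear on Itgax and Cd209a, were called lower in 11 of 15, with Mpeg1 at -5.05, Lyz2 at -4.99 and Ly6c2 at -4.01. Neutrophil markers were called lower in 5 of 10 (Elane -3.30, Mpo -3.05) and in 2 of 10 among libraries with low Xist. Ngp (1.43), Ltf (1.39) and Camp (0.98), granule genes of later neutrophil stages, had positive log2 fold changes with no call, and in each cKO 1 was the highest library. Erythroid markers were called higher in 6 of 12 (Hbb-bs 2.90, Alas2 2.67, Car1 1.84). None of these marker genes was at 0 in all libraries, and their part in the changes of the 10 genes was not tested.

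**Figure D5:**
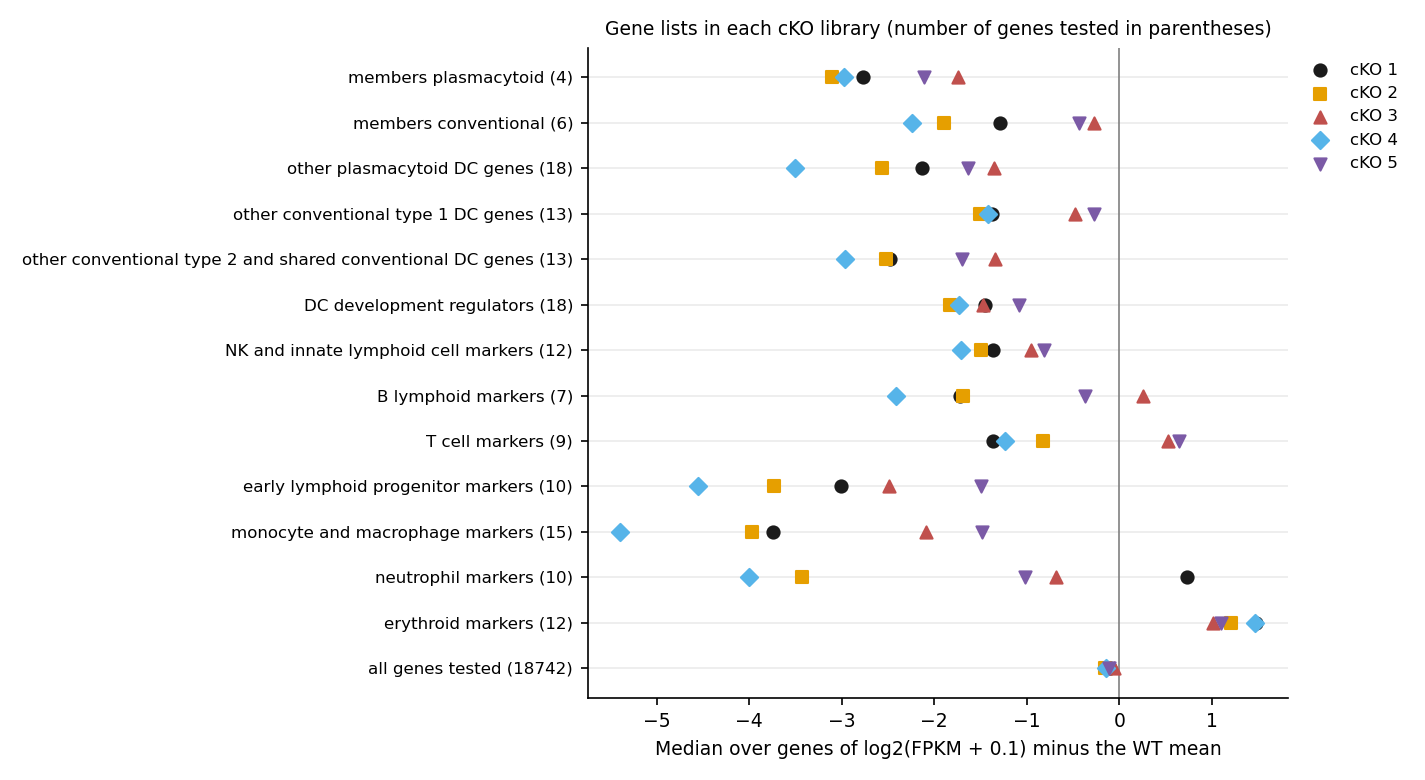
Median over the genes of each list of log2(FPKM + 0.1) minus the WT mean (x axis) in each cKO library (symbols), with all genes tested as the last line. The plasmacytoid members lie at -3.10 to -1.74 and the conventional members at -2.24 to -0.27, monocyte markers at -5.40 to -1.49, and all genes at -0.16 to -0.06.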

How the data were processed

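Lin- bone marrow RNA, isolated with TRIzol, was sequenced in 10 libraries as 2 × 150 paired-end reads. Per the labels and methods, the authors trimmed reads (cutadapt 1.9.1; minimum quality 20), aligned them to GRCm39 (HISAT2 2.0.1) and deposited FPKM per gene, to 2 decimals; HTSeq 0.6.1 is named in the submitters' processing notes, and the annotation behind gene lengths is not given in the sources used here. Counts were not used, so the DESeq2 test of the study was replaced by limma 3.58.1 (R 4.3.3; lmFit, eBayes with trend, two-sided) on log2(FPKM + 0.1), with Benjamini-Hochberg adjustment over 18742 genes. The fit across all genes was tested on simulated data with the WT spread in both groups, so that test does not cover a wider spread among cKO libraries. Symbols came from GENCODE M39 (54749 of 55359 identifiers matched). Fragments per library were recovered from single-transcript genes of 300 to 1200 bp; 95.2% to 95.6% of values up to 20 fragments were within 0.2 of a whole number. Fragment numbers and floors cover counting error only. No 2 libraries were alike within sampling noise (smallest chi-square per degree of freedom 4.57). The members and the 14 gene lists were chosen with earlier results of these data known; 1 list gene was not matched. Of each list the text names the 2 most abundant genes and the 2 with the largest called change at a mean of at least 1 FPKM. Flt3, Relb, Cd3e, Cd3g, Ngp, Ltf, Camp and genes named at 0 were added after their values were seen. Alternatives covered the pseudocount, the filter, scaling, the trend, the replicate block, Xist, the call rule and each library left out.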

Additional observations from a re-analysis of the deposited data

Results flagged for a closer look

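In 48 groups of 5 libraries examined, 2 libraries stood far from the other 4 of their group, where chance at about 1 in 20 groups would give 2.4. Zbtb46 was at 4.94 FPKM in cKO 1 against 2.76 to 3.23 FPKM in the other cKO libraries. Cd209a was at 0.24 FPKM in cKO 5 against 0 to 0.04 FPKM in the other cKO libraries.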

How the results depend on the processing

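Over 22 settings, 203 of 216 values of single members kept their direction and side of the threshold. Siglech, Cd7, Cd209a and Itgax were called lower in every setting that tested them. Quantile normalization turned Zbtb46 to 0.076 and Batf3 to 0.0923, neither called; it also moved the median of all genes from -0.11 to 0.10 and the share of calls that were higher from 21.5% to 41.3%. With a mean of at least 1 FPKM, which leaves Ccr9, Batf3 and Xcr1 (and Itgax, by its mean over both groups) untested, 3 members were called lower, 1 of them conventional. Leaving out single libraries gave 2 to 4 conventional genes called lower, with 4 without cKO 3. With a pseudocount of 1 the change in the plasmacytoid minus conventional mean was -0.51. Over all genes, calls lower and higher numbered 1486 and 356 with a pseudocount of 1, 1827 and 462 with the filter at 1 FPKM, and 5300 and 3138 on adjusted p alone (37.2% higher). Calls higher numbered 1581 under quantile normalization and 536 in libraries with Xist at or under 1 FPKM. The cause of these shifts was not tested beyond the number of genes or libraries left in each fit. Whether replicate numbers pair the libraries was not settled (correlations of same-numbered deviations -0.01 to 0.117, with 3 of 5 best with their own number). With the replicate block 5 members were called lower, as without it, and 3107 of all genes lower and 857 higher. By annotated length Batf3 held at most about 8 fragments in any library.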
